A study of Mus musculus with 3 samples.

Results

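Il21-positive CD4 T cells were 220 of the 13637 cells that passed the cell limits in 3 single-cell RNA libraries of inflamed mouse sciatic nerve. They were chosen by their transcripts: at least 1 unique molecular identifier (UMI, 1 counted RNA molecule) of Il21, of Cd4 and of the CD3 genes Cd3d, Cd3e or Cd3g, and none of Cd8a, Cd8b1, Foxp3 or Cd79a, with at most 1 UMI of the C1q genes. The same gate held 1416 cells with 0 Il21 UMIs, so that 220 of 1636 gated cells were Il21-positive. Because the choice used Il21, its own level is given as a description and was not tested.

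Each library held immune cells sorted on CD45 from the sciatic nerves of neuropathic NOD.AireGW/+ mice, a nonobese diabetic strain with a partial loss-of-function Aire allele that lets self-reactive T cells leave the thymus. The cells of libraries 1 and 2 were taken from single mice, whereas 2 mice were pooled for library 3, so 4 mice were sampled in all, and the labels give no age. All libraries belonged to 1 group, no library from a mouse without neuropathy was analysed here, and every comparison below is between cells of the same libraries. The Il21-positive cells numbered 83, 129 and 8 in libraries 1, 2 and 3, and the Il21-zero cells 545, 692 and 179. The 8 cells of library 3 held 14818 UMIs in all, so that 1 UMI there equals 67.5 CPM (the gene's UMIs per 1000000 UMIs of the summed cells), and their values are coarse.

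IL-21 is a cytokine of the common gamma chain family that helper T cells make to promote B cell maturation and to sustain other T cells. Its best known sources are T follicular helper (Tfh) cells, which rely on Bcl6 and enter follicles through Cxcr5, and T peripheral helper (Tph) cells, which give B cell help in inflamed tissue and lack Cxcr5. The transcription factors Maf, Irf4, Batf and Nfatc1 are known to act on the Il21 gene, and Rbpj is the nuclear partner of Notch.

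The Il21 gene (ENSMUSG00000027718) lies on the minus strand of mm10 at chr3:37222759-37232636. The 250 bases before its start, chr3:37232637-37232886 on the minus strand of GRCm38.p6, are shown from RefSeq because Il21 transcription chose these cells; capitals mark letters that match a binding motif on either strand.

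Il21 promoter: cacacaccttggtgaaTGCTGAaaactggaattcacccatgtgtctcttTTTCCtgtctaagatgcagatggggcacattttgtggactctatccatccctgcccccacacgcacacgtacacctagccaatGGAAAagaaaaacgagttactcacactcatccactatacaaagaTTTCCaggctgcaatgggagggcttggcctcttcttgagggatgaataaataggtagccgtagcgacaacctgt

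The window held 3 matches to the NFAT core GGAAA, which start 201, 118 and 74 bases before the gene start, and 1 match to the MAF half-site TGCTGA, which starts 234 bases before it. No match was present to the AP-1 letters TGANTCA, the RBPJ letters TGGGAA or the STAT letters TTCNNNGAA, which says only that these letters are not in this window. Among all 32851 promoter windows of this length, 55.6% held the NFAT core, 16.1% the MAF half-site, 6.75% the AP-1, 21.6% the RBPJ and 7.02% the STAT letters. These matches are a description of the sequence.

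Il21 transcripts were sparse even in the cells chosen for them. An Il21 UMI was present in 13.2% (10.7 to 16.1), 15.7% (13.3 to 18.4) and 4.28% (1.86 to 8.26) of the gated cells of libraries 1, 2 and 3, with exact 95% binomial intervals in parentheses that cover counting error only. Libraries 1 and 2 overlapped in their intervals, and library 3 was below both. Most Il21-positive cells, 45 of 83, 70 of 129 and 5 of 8, had exactly 1 Il21 UMI, and the highest cell had 8, 21 and 7.

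The background of free RNA was read from B cells, which should lack Il21. They held an Il21 UMI in 0 of 236, 1 of 368 and 0 of 81 cells, and 0 cells allow a share of up to 1.27% in library 1 and 3.70% in library 3. The exact B cell interval of library 3 reached 4.45%, so the 4.28% of its gated cells was not set apart from this background. Median UMIs per cell were 3948.5, 3142 and 1710.0 in the B cells and 3031, 2568 and 1746 in the gated CD4 cells, so the higher CD4 shares in libraries 1 and 2 did not go with deeper cells. Foxp3-positive CD4 T cells held Il21 in 2.26% (0.832 to 4.84) and 2.52% (0.931 to 5.41) of cells in libraries 1 and 2, below the gated cells in both. After each cell was thinned to 1000 UMIs, the gated shares were 4.55% (2.94 to 6.701), 6.78% (5.14 to 8.76) and 3.75% (1.39 to 7.98), and the 3 intervals overlapped. The 3.75% of library 3 was under the 4.11% that 0 of 73 thinned B cells allow.

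**Figure D1:**
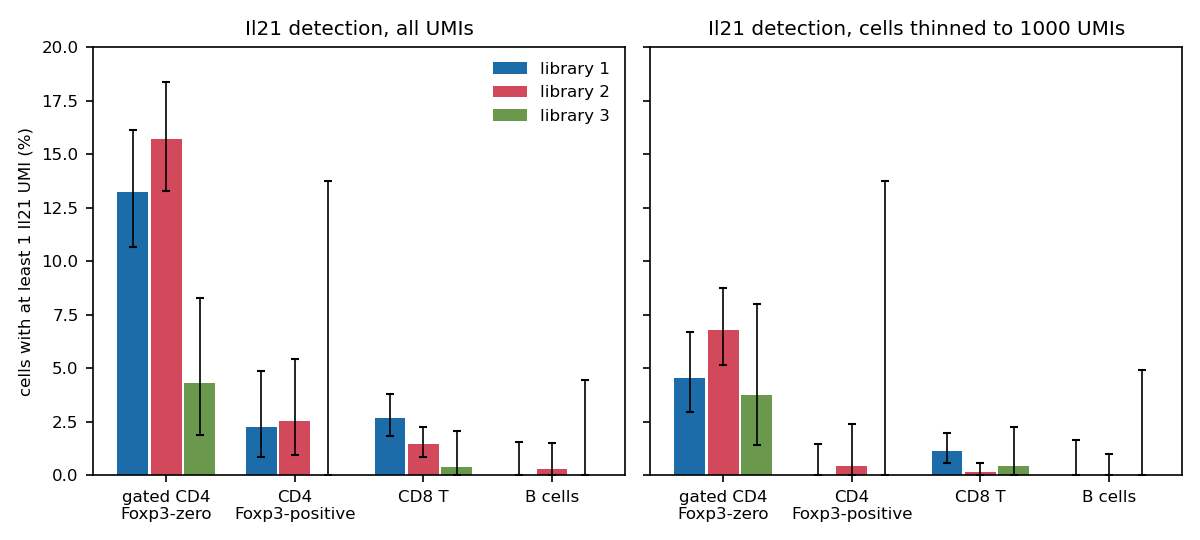
Share of cells with at least 1 Il21 UMI, in percent, by cell class and library, with all UMIs (left) and after thinning each cell to 1000 UMIs (right). Bars are single libraries and lines are exact 95% binomial intervals. The gated CD4 cells of libraries 1 and 2 reach 13.2% and 15.7%, and the B cells stay at or under 0.272%.

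The Il21-positive cells were somewhat deeper than the Il21-zero cells in libraries 1 and 2, with median UMIs of 3732, 3649 and 1617 against 2869, 2456 and 1755 in libraries 1, 2 and 3. Ribosomal protein transcripts took 21.9, 26.3 and 25.2% of their UMIs against 21.7, 27.1 and 29.02%. Cells of other lineages were looked for by their markers. The receptor constant gene Trbc2, which the gate did not use, was present in both groups, at 307, 275 and 405 against 293, 278 and 528 CPM for Trbc2. Of 8 B cell markers, Cd79b, Ms4a1, Ebf1 and Bank1 were at 0 UMIs in the Il21-positive cells of libraries 1 and 2, and the list's summed level of 6401, 5209 and 0 CPM was almost all Cd74. The corresponding sums in Il21-zero cells were 3413, 2864 and 1848.

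Macrophage and monocyte markers, 11 genes, summed to 1627, 2064 and 135 CPM in Il21-positive cells and to 1703, 1275 and 1071 in Il21-zero cells. Neutrophil markers were at 0 in all Il21-positive cells. The antigen presentation gene Cd74 stood at 6302, 5179 and 0 CPM in Il21-positive cells against 3287, 2765 and 1798 in Il21-zero cells, higher in libraries 1 and 2 and absent from the 8 cells of library 3. It was called higher (log2 difference 0.98 ± 0.07), but among cells with 0 UMIs of the MHC class II genes H2-Aa, H2-Ab1 and H2-Eb1 the difference was -0.24 and was not called, a comparison added after the data were seen. H2-Aa (0.95 ± 0.08), H2-DMb2 (1.18 ± 0.16) and Cst3 (0.81 ± 0.08) were called higher in all cells. Among the MHC class II-zero cells the Cst3 difference was -0.25 and was not called, while H2-Aa, which chose those cells, and H2-DMb2 were not tested. The cells with 0 UMIs of these MHC class II genes were 57 of 83 and 68 of 129 Il21-positive cells in libraries 1 and 2. Among Il21-zero cells they were 424 of 545 and 403 of 692. Of the 11 macrophage markers, Ccr1 was called higher (1.95 ± 0.49). The part of RNA from other cells in the values of this and other genes was not tested.

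Barcodes shared between libraries were few: libraries 1 and 2 had 36 in common, and 2 Il21-positive cells carried one of them, with no barcode Il21-positive in both. Libraries 1 and 3 shared 7 barcodes and libraries 2 and 3 shared 14, none of them in an Il21-positive cell.

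Compared with their Il21-zero neighbours, Il21-positive cells held more RNA of Bhlhe40, Spry1 and Socs2, of the ligands Tnfsf8, Cd40lg and Tnfsf11 and of Il10, and less RNA of Klf2, S1pr1 and Il7r, which mark resting and recirculating T cells. UMIs were summed per library and group of cells and tested with edgeR over libraries 1 and 2, since library 3 had too few Il21-positive cells for a sum. At an adjusted p under 0.05, 132 genes were higher and 105 lower in Il21-positive cells, 2.74% of the 8635 genes tested (1.53% higher and 1.22% lower). The test rests on 2 mice and 4 sums, with 1 residual degree of freedom per gene beside a median of 43.3 that edgeR borrows across genes (fewer for genes of unusual spread such as Ifng), and the number of calls moved widely with the settings: 0 without the library term, where 272 genes had an unadjusted p under 0.05, 46 with DESeq2 and 286 without a filter. With the 8 cells of library 3 added there were 94 calls, and with those cells but without library 1 or library 2 there were 4 and 9. Levels are in CPM and log2 differences are given with their standard error. The phrase "called in 10 of 11" counts the other settings in which a gene still passed. The fits without library 1 or library 2 are not among the settings so counted.

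Genes were then counted by list, and these lists were chosen with earlier results of these data known. Over all genes 1.53% were higher and 1.22% lower. Transcription factors came first. Of 32 listed regulators of Il21 and helper T cell factors, 29 were tested, 7 were higher, 4 were lower and 18 were not called, with a median log2 difference of 0.18 beside 0.01 over all genes. Bhlhe40, a factor needed for cytokine production by helper T cells, stood at 1280.1, 901 and 2159.5 CPM in Il21-positive cells of libraries 1, 2 and 3 and at 735, 548 and 738 in Il21-zero cells. It was higher in all 3 libraries (log2 difference 0.82 ± 0.09, adjusted p = 2.78e-08) and was called in 9 of 11 other settings. It was found in 91.6% and 87.6% of Il21-positive cells in libraries 1 and 2 against 60.7% and 49.9% of Il21-zero cells.

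Rbpj (mm10 chr5:53466152-53657362) stood at 248, 221 and 337 CPM against 153, 147 and 147, higher in all 3 libraries (log2 difference 0.70 ± 0.14, adjusted p = 8.73e-04). It was called in 5 of 11 other settings, with a positive difference in each. Maf (mm10 chr8:115682942-115707794) stood at 451, 311 and 269.9 against 320.4, 256 and 278, higher in libraries 1 and 2 and level in library 3 (log2 difference 0.44 ± 0.12, adjusted p = 0.0274). The call on Maf held in only 3 of 11 other settings. Spry1, Rbpj and Maf had been named as markers of these cells from earlier results of the same data, so their direction here is no independent evidence.

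Irf4, induced by antigen receptor signals, was higher (log2 difference 0.78 ± 0.20, adjusted p = 0.02095), as were Nfatc1 (log2 difference 0.59 ± 0.13, adjusted p = 0.00514), the hypoxia factor Hif1a (log2 difference 0.62 ± 0.11, adjusted p = 1.88e-04) and Id2 (log2 difference 0.45 ± 0.12, adjusted p = 0.0345). The Id2 call was lost in every other setting. Batf, also named above as acting on the Il21 gene, was not called. It stood at 245, 190 and 67.5 CPM against 178, 224 and 239, higher in library 1 and lower in libraries 2 and 3. Bcl6, the factor that defines Tfh cells, was low in both groups at 17.3, 25.3 and 0 CPM against 18.5, 21.1 and 28.9, and its difference of 0.18 ± 0.38 was not called (95% interval -0.58 to 0.95). Prdm1, which encodes Blimp1, gave 49.5, 43.1 and 135 against 51.3, 39.3 and 23.6 and a difference of 0.11 ± 0.26 that was not called either (interval -0.41 to 0.62). Tcf7, a factor of stem-like T cells, was lower at 96.6, 77.3 and 67.5 against 166, 134 and 118 (log2 difference -0.73 ± 0.18, adjusted p = 0.00957). Klf2 is described with the resting genes, and Lef1 (-0.98 ± 0.26) and Ikzf2, which encodes Helios (-0.98 ± 0.17), were lower as well (adjusted p = 0.0251 and 1.19e-04).

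Among 7 tested Notch genes none was called, with differences from -1.08 in Maml2 to 0.30 in Notch1, the receptor best measured. Dtx1, Hes1, Hey1 and Nrarp, which are induced by Notch, were too low to be tested. The edgeR count of 0 calls in this list stood beside 1 gene with an unadjusted p under 0.05.

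Cytokine transcripts were higher in Il21-positive cells for Il10, Lta, Tnfsf11, Ccl3 and Ccl4 and lower for Ccl5. Of 21 listed cytokines and secreted factors 16 were tested, 5 were higher, 1 was lower and 10 were not called. The median log2 difference was 0.65, and over all genes 1.53% were higher and 1.22% lower. Ifng, the type 1 helper cytokine, was found in 53.01%, 54.3% and 62.5% of Il21-positive cells and in 22.6%, 26.4% and 15.6% of Il21-zero cells of libraries 1, 2 and 3. After thinning to 1000 UMIs the shares were 26.7%, 34.4% and 62.5% and 11.1%, 13.2% and 9.21%. Its level was 713, 471 and 2362 CPM against 141, 231 and 181, higher in all 3 libraries. The log2 difference of 1.71 ± 0.62 was not called (adjusted p = 0.663, 95% interval -3.34 to 6.76), and it was called in 4 of 11 other settings. In library 1 a single cell held 76 of the 288 Ifng UMIs.

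Il10, an anti-inflammatory cytokine that also helps B cells, was higher at 243, 213 and 337 CPM against 152, 97.3 and 63.01 (log2 difference 0.96 ± 0.15, adjusted p = 9.91e-06). The share of cells with an Il10 UMI was 18.1%, 23.3% and 25.0% against 16.5%, 14.3% and 8.38%, with overlapping 95% intervals in each library. Il10 and Ifng were found together in 12.05%, 13.2% and 12.5% of Il21-positive cells and in 4.22%, 5.202% and 1.68% of Il21-zero cells. With cells thinned to 1000 UMIs the joint shares were 5.33%, 5.47% and 0% and 1.99%, 1.198% and 0.658%. Neither cytokine was found in 40.96%, 35.7% and 25.0% of Il21-positive cells.

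Tnfsf11, which encodes RANKL, stood at 433, 333 and 1012 CPM against 222, 179.8 and 297 and was higher in all 3 libraries (log2 difference 0.98 ± 0.12, adjusted p = 1.56e-07; called in 10 of 11 other settings). Lta, which encodes lymphotoxin alpha, gave 149, 126 and 0 against 46.7, 54.3 and 44.6 (log2 difference 1.48 ± 0.20, adjusted p = 7.42e-07; 10 of 11), with 0 UMIs in the 8 cells of library 3. The chemokines Ccl3 (1.47 ± 0.15) and Ccl4 (1.31 ± 0.11) were higher too. Their UMIs were concentrated, since 1 cell of library 1 held 90 of 145 Ccl3 UMIs and 215 of 480 Ccl4 UMIs. Ccl5, a chemokine of effector and cytotoxic cells, was lower in libraries 1 and 2 and higher in library 3, at 1072, 1245 and 4454 against 1915, 3353 and 2725 (log2 difference -1.09 ± 0.16, adjusted p = 0.0396).

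Il2 was not called (difference 1.97 ± 0.54, adjusted p = 0.309). It was present in 5 of 83 and 8 of 129 Il21-positive cells, and 1 cell held 69 of the 88 Il2 UMIs of library 1. Il4, Il13, Il22, Il3 and Csf2 were too low to be tested. Cxcl13, the B cell attractant of human Tph cells, was found in 2.41%, 10.9% and 0% of Il21-positive cells, and its difference of 0.06 ± 0.46 was not called.

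Ligands and receptors of T cell help were the second group. Of 24 tested costimulatory and inhibitory genes 6 were higher, 2 were lower and 16 were not called, with a median of 0.21. The shares over all genes were 1.53% higher and 1.22% lower. Tnfsf8, which encodes CD30 ligand (mm10 chr4:63831308-63861347), stood at 683, 315 and 607 CPM against 298, 158 and 349, higher in all 3 libraries (log2 difference 1.16 ± 0.12, adjusted p = 1.13e-09; called in 10 of 11 other settings). Cd40lg, the ligand through which helper T cells license B cells, gave 423, 219.9 and 675 against 219.7, 156 and 199.5 (log2 difference 0.79 ± 0.13, adjusted p = 1.08e-04; 8 of 11).

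Cd200, an inhibitory ligand common on Tfh cells, was found in 81.9% and 75.2% of Il21-positive cells and 36.1% and 37.9% of Il21-zero cells in libraries 1 and 2, and the levels were 904, 575 and 1619.7 against 294, 326 and 585. All 3 libraries were higher, but the difference of 1.27 ± 0.22 missed the threshold (adjusted p = 0.104) and passed it in 8 of 11 other settings. Higher levels were also called for the inhibitory receptors Btla (1.13 ± 0.23), Lag3 (0.62 ± 0.10) and Ctla4 (0.44 ± 0.09) and for Tnfrsf4, which encodes OX40 (0.61 ± 0.09). Lower levels were called for its relatives Cd27 (-0.76 ± 0.15) and Tnfrsf9, which encodes 4-1BB (-1.27 ± 0.27).

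Icos and Pdcd1, which are used to define Tfh and Tph cells by flow cytometry, did not pass the test. Icos stood at 1109, 525 and 2159.5 CPM against 1262, 656 and 1095 (difference -0.19 ± 0.10, adjusted p = 0.402), and Pdcd1 at 411, 158 and 337 against 430.2, 179 and 276 (-0.06 ± 0.13, interval -0.32 to 0.20). Each had a negative difference in the sums and a positive one in cells matched on total UMIs. Cells with a Pdcd1 UMI made up, at full depth, 61.4%, 43.4% and 12.5% against 51.7%, 31.4% and 24.6%, and after thinning 32.0%, 15.6% and 12.5% against 31.6%, 16.9% and 14.5%.

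**Figure D2:**
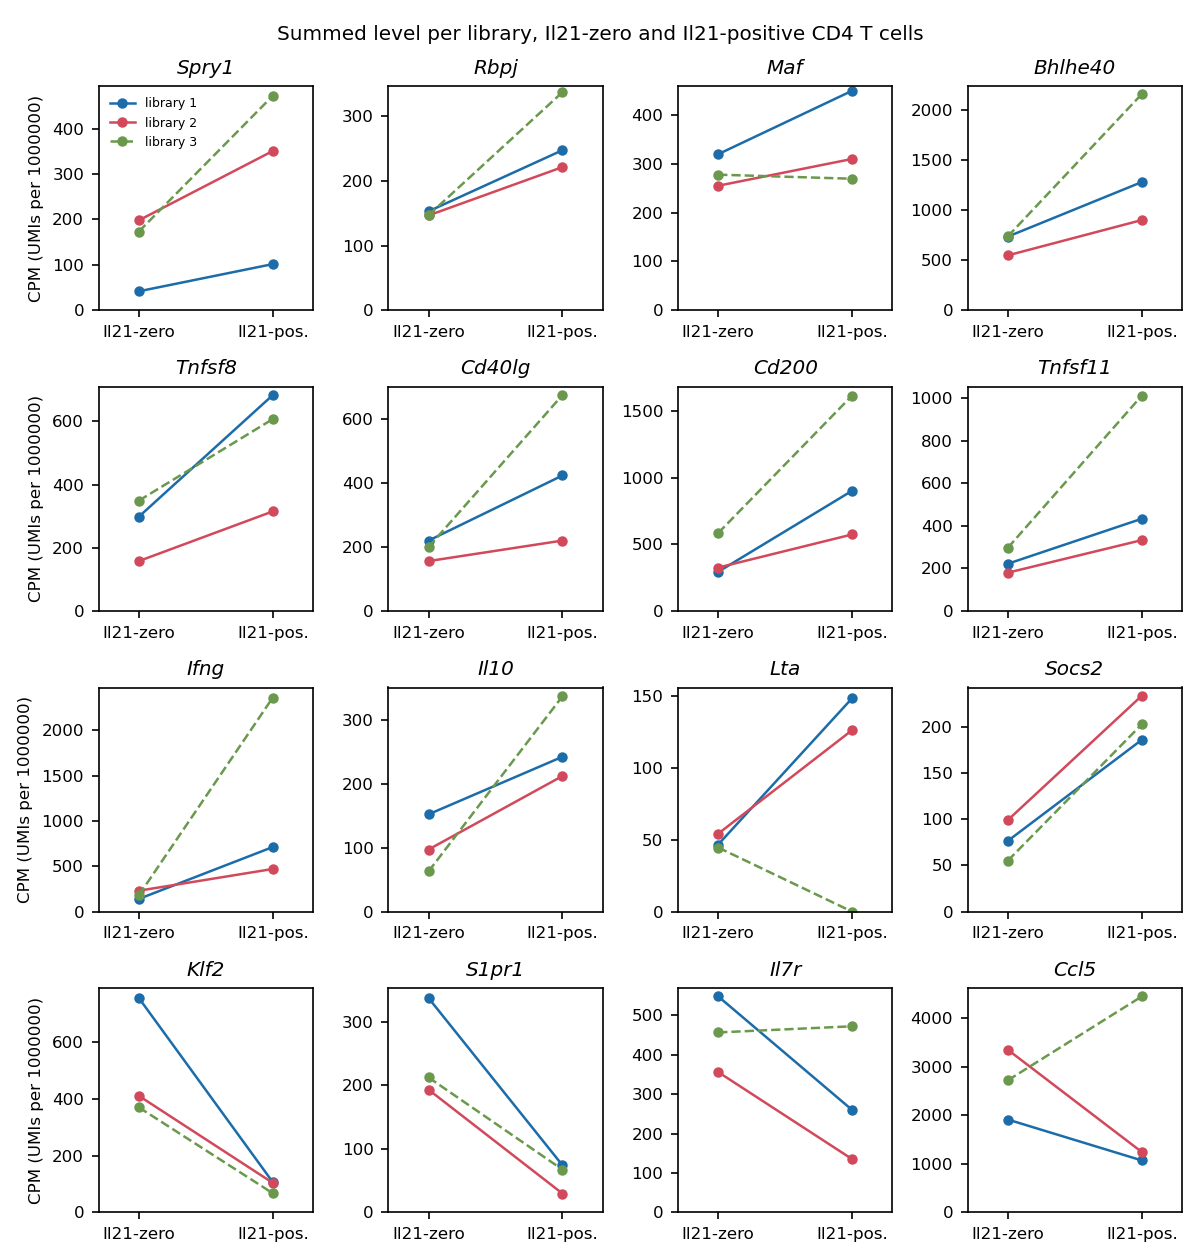
Summed level of 16 genes in CPM (vertical axes, each from 0) in Il21-zero and Il21-positive cells; each line joins the sums of 1 library, and the dashed line is library 3 with 8 Il21-positive cells. Spry1, Rbpj, Tnfsf8 and Tnfsf11 rise and Klf2 and S1pr1 fall in each library, while Lta, Maf, Il7r and Ccl5 move the other way or not at all in library 3.

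Genes that report and restrain antigen receptor signals formed another group. Of 25 tested, 8 were higher, 3 were lower and 14 were not called (median 0.18), beside 1.53% higher and 1.22% lower over all genes. Spry1, an inhibitor of Ras and MAP kinase signalling (mm10 chr3:37639947-37644598), stood at 102, 351 and 472 CPM in Il21-positive cells and 41.6, 198 and 173 in Il21-zero cells. It was higher in all 3 libraries (log2 difference 1.01 ± 0.15, adjusted p = 1.04e-05; called in 9 of 11 other settings), although its level differed several-fold between libraries 1 and 2 in both groups. Spry1 was found in 24.1%, 67.4% and 37.5% of Il21-positive cells against 10.3%, 29.3% and 21.2%.

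Other feedback genes called higher were Dusp4, a MAP kinase phosphatase (0.74 ± 0.16), Dusp1 (0.37 ± 0.09), Rgs16 (0.93 ± 0.13), the NF-kappaB inhibitors Nfkbid (1.09 ± 0.16) and Nfkbia (0.55 ± 0.09), and Junb (0.31 ± 0.07). Egr2 was higher by 1.48 ± 0.38 from 13 and 22 UMIs. The phosphatases Dusp10 (-1.997 ± 0.23) and Dusp5 (-0.62 ± 0.14) and Pdcd4 (-0.68 ± 0.16) were lower, so genes of the same phosphatase family moved in both directions. The immediate early receptor Nr4a1 gave 683, 556 and 809.8 CPM against 779, 428 and 583 and was not called (0.16 ± 0.11).

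In the common gamma chain list, 15 genes were tested, 2 were higher and 1 was lower (median -0.10). These are few calls, beside 1.53% higher and 1.22% lower over all genes. The higher genes were feedback inhibitors induced by STAT5: Socs2, at 186, 233 and 202 CPM against 76.5, 98.99 and 55.1 and higher in all 3 libraries (log2 difference 1.31 ± 0.16, adjusted p = 4.11e-08), and Cish (0.80 ± 0.22, adjusted p = 0.0362). Il7r, the IL-7 receptor of resting and memory T cells, was lower in libraries 1 and 2 and level in library 3, at 260.0, 135 and 472 against 548, 356 and 457 (log2 difference -1.17 ± 0.13, adjusted p = 1.00e-08). Il21r, the receptor for IL-21 itself, gave 196, 123 and 135 against 244, 140.0 and 328, and its difference of -0.19 ± 0.15 was not called (interval -0.49 to 0.10).

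The clearest losses against Il21-zero cells were in genes of resting and recirculating T cells. Of 16 tested genes of that list 9 were lower, 1 was higher and 6 were not called. The median log2 difference was -1.07 beside 0.01 over all genes, of which 1.53% were higher and 1.22% lower. Klf2, which holds T cells quiescent and drives S1pr1 (mm10 chr8:72319033-72321656), stood at 106, 104 and 67.5 CPM against 756, 411 and 370.2 (log2 difference -2.31 ± 0.16, adjusted p = 9.89e-11). S1pr1, the sphingosine 1-phosphate receptor that lets T cells leave tissue (mm10 chr3:115710433-115715072), stood at 74.3, 29.7 and 67.5 against 338, 193 and 213 (log2 difference -2.36 ± 0.18, adjusted p = 7.93e-13). For both genes the 3 Il21-positive sums lay below the 3 Il21-zero sums, and both were called in 10 of 11 other settings. S1pr1 was found in 15.7%, 8.53% and 12.5% of Il21-positive cells and 37.98%, 34.5% and 28.5% of Il21-zero cells.

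Klf3 (-2.27 ± 0.28), Satb1, Lef1, Tcf7, Il7r and Txk were also among the 9, and several were sparse: Satb1, which encodes a chromatin organiser of T cells, had 5 and 4 UMIs in the Il21-positive cells of libraries 1 and 2 and 103 and 99 in the Il21-zero cells. Ramp1, a subunit of the receptor for the neuropeptide CGRP, was the member that was higher, at 574, 639 and 607 CPM against 341, 462 and 399 (log2 difference 0.66 ± 0.11, adjusted p = 5.80e-05). Ccr7, a lymph node homing receptor, was not called, with 527, 318 and 1282 against 404, 424 and 1126 (interval -0.44 to 0.51).

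Among 22 tested genes of chemokine response, egress and residency, 1 was higher and 5 were lower (median -0.36). All genes together gave 1.53% higher and 1.22% lower. Beside S1pr1, the lower genes included S1pr4 (-1.21 ± 0.24), the oxysterol receptor Gpr183 (-1.32 ± 0.25) and the integrin Itgb7 (-0.69 ± 0.14), and the higher gene was Ccr8 (0.53 ± 0.15, adjusted p = 0.0403). Cxcr6, a receptor of tissue-resident T cells, gave 391, 135 and 67.5 CPM against 452, 172 and 68.3 and was not called (-0.21 ± 0.13, interval -0.47 to 0.05). Cxcr5 was near the limit of detection, in 4.82%, 1.55% and 0% of Il21-positive cells and 3.49%, 3.76% and 2.79% of Il21-zero cells.

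The rule for the largest changes also named genes outside these lists. Igfbp7, a secreted binding protein of insulin-like growth factors, was higher at 106, 78.8 and 135 CPM against 29.8, 24.02 and 36.8 (log2 difference 1.83 ± 0.24, adjusted p = 2.87e-07), from 23 and 29 cells of libraries 1 and 2. Spp1, which encodes osteopontin, was higher by 1.70 ± 0.16, Mir155hg, the host gene of miR-155, by 1.33 ± 0.20, 1700019D03Rik by 1.54 ± 0.16, the phospholipid scramblase gene Plscr1 by 1.29 ± 0.18 and Sccpdh by 1.22 ± 0.24. The highest difference, 2.74 ± 0.40 for Sostdc1, a secreted inhibitor of Wnt and BMP signals made by some Tfh cells, came from 5 and 3 Il21-positive cells. The lowest, -3.13 ± 0.39 for Klk1, came from 8 and 9 Il21-zero cells. Gramd3 (-2.01 ± 0.18), Emb (-1.95 ± 0.17), Rflnb (-1.92 ± 0.25), the Ras inhibitor Rasa3 (-1.91 ± 0.29), Pja1 (-1.69 ± 0.29), Slpi (-1.66 ± 0.35) and the kinase Txk (-1.64 ± 0.34) were lower.

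**Figure D3:**
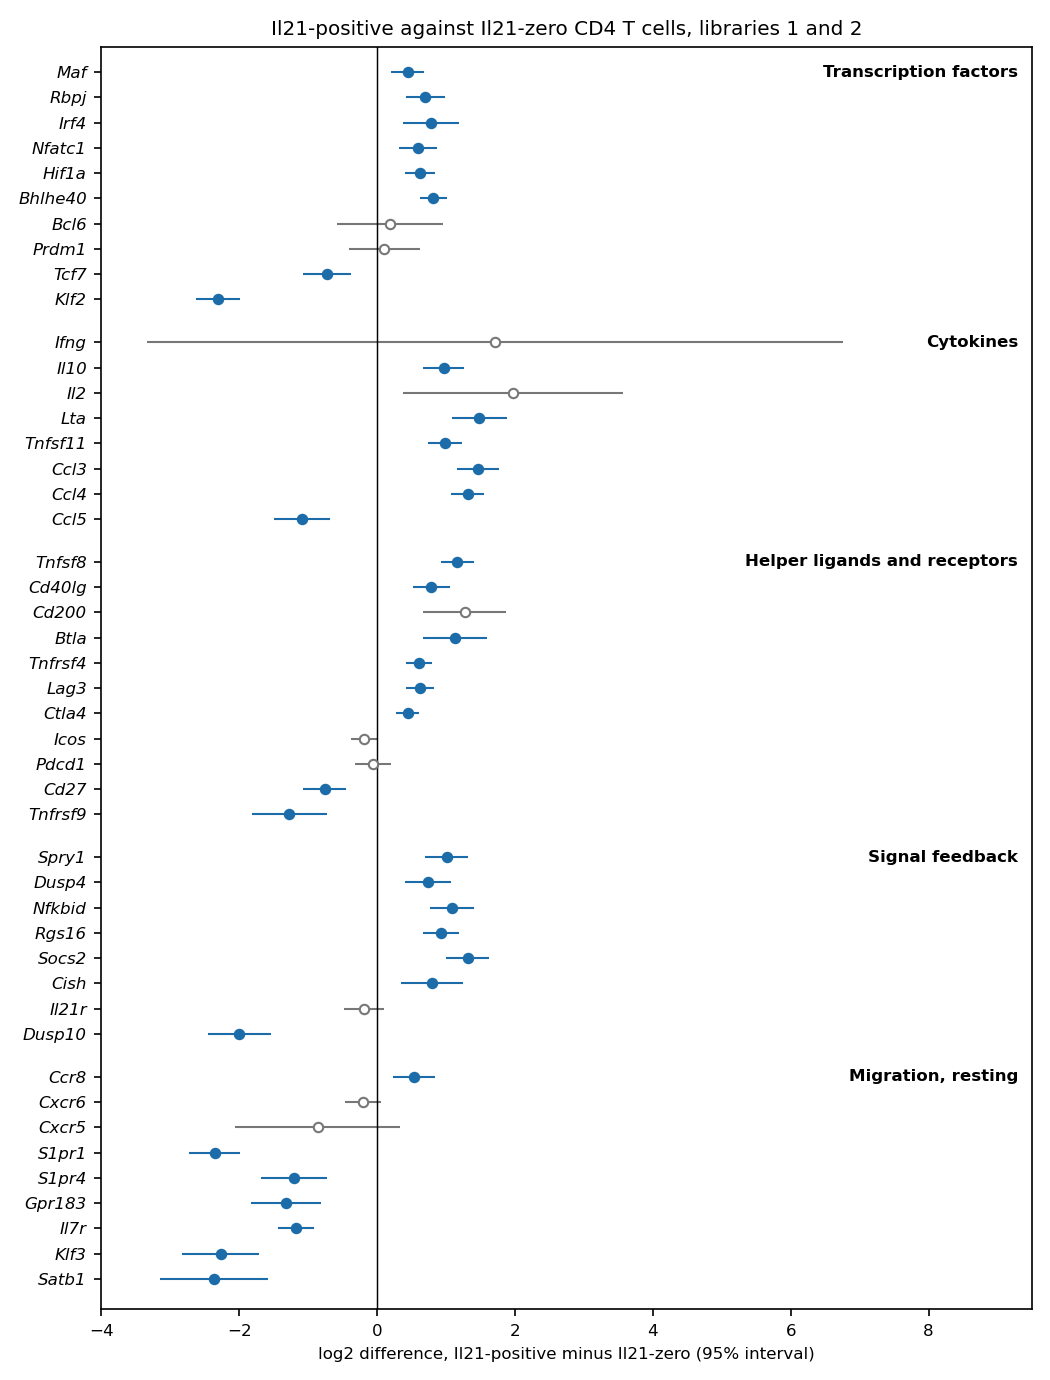
Fitted log2 difference between Il21-positive and Il21-zero cells (horizontal axis) with its 95% interval for 46 genes grouped by role, over libraries 1 and 2. Filled points were called at an adjusted p under 0.05 and open points were not. Klf2 and S1pr1 lie below -2, while Bcl6, Prdm1, Icos, Pdcd1 and Cxcr6 have intervals close to or across 0.

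Library 3 entered none of these fits. Among called genes with at least 3 UMIs to be expected in its 8 Il21-positive cells, 29 of 41 genes called higher were above the Il21-zero level there (70.7%), against 44.8% of all 659 tested genes of that level. Of the genes called lower, 14 of 24 were below it (58.3%), against 55.2% of all. The share of lower calls was thus close to that of all genes in library 3.

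Levels were next set against the number of Il21 UMIs in a cell, 0, 1 or at least 2, as a description of cells within each library. In library 1 the 545, 45 and 38 cells of these classes held Ifng at 141, 398 and 1003 CPM, and in library 2 the 692, 70 and 59 cells held 231, 369 and 605. Tnfsf8 gave 298, 584 and 775 in library 1 and 158, 228 and 429.8 in library 2, and Il10 152, 191 and 290.1 and 97.3, 136 and 313. Each of these genes had its highest level in the cells with most Il21 in both libraries. Rbpj, at 153, 279 and 219 and 147, 204 and 244, did not keep that order in library 1, and neither did Cd200, at 294, 919.6 and 889 and 326, 469 and 715. Ccl5 was lower in each further class, at 1915, 1524 and 656 in library 1 and at 3353, 1609.8 and 767 in library 2. Median UMIs per cell in the classes with 1 and with at least 2 Il21 UMIs were 3842 and 3599.5 in library 1 and 3720.0 and 3608 in library 2.

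**Figure D4:**
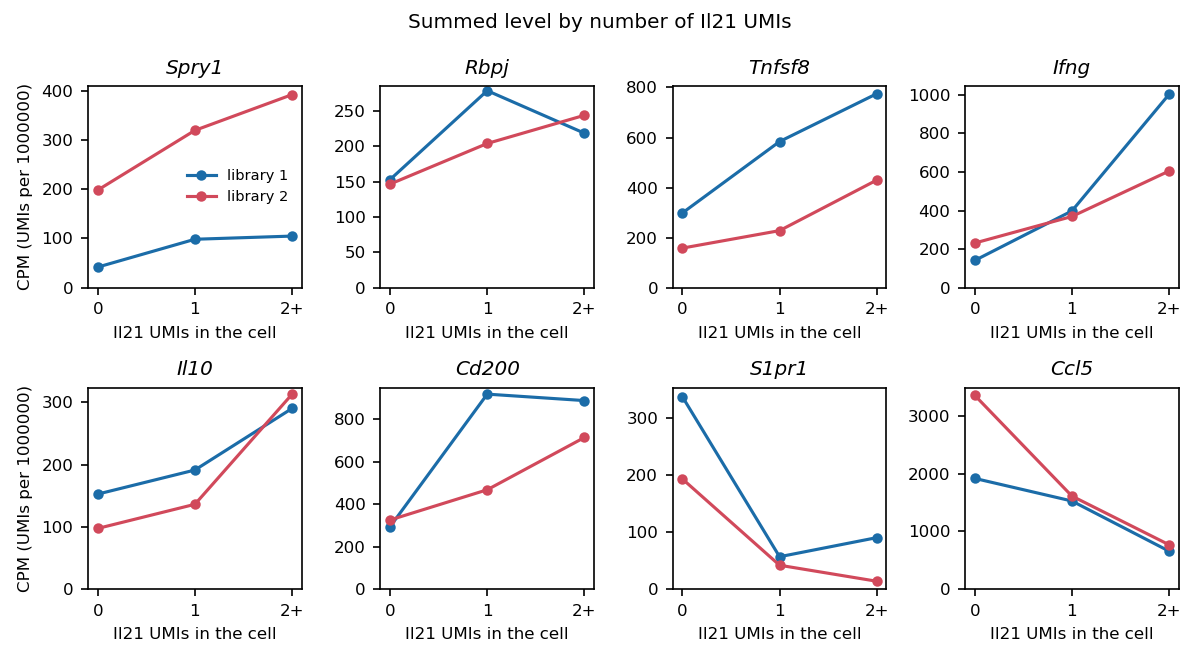
Summed level in CPM (vertical axes, from 0) of 8 genes in cells with 0, 1 or at least 2 Il21 UMIs (2+), for libraries 1 and 2. Ifng, Il10 and Tnfsf8 are highest and Ccl5 is lowest in the cells with at least 2 Il21 UMIs in both libraries.

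At full depth, a set of Tfh and stem-like genes and a set of Tph genes did not split the Il21-positive cells cleanly. The study separated its Tfh and Tph-like cells by clustering and not by these sets. Cells with a UMI of Bcl6, Cxcr5, Tcf7 or Slamf6 but none of Prdm1 or Cxcr6 made up 34.9%, 31.8% and 25.0% of them, cells with only Prdm1 or Cxcr6 33.7%, 22.5% and 25.0%, and cells with a UMI of both sets 18.1%, 17.8% and 12.5%. The shares among Il21-zero cells were 33.2%, 40.03% and 36.3%, 27.7%, 21.2% and 11.2% and 18.5%, 10.4% and 2.79%. After thinning, the first of these classes made up 20.0%, 13.3% and 0% of Il21-positive cells, against 27.0%, 26.2% and 27.0% of Il21-zero cells. Cells with only Prdm1 or Cxcr6 were then 26.7%, 14.8% and 12.5% against 23.5%, 17.2% and 5.92%. Cells with both sets were 5.33%, 3.91% and 12.5% against 5.31%, 2.84% and 0.658%. Tcf7, a stem-like progenitor gene in the study, was found at full depth in 26.5% and 20.9% of Il21-positive cells of libraries 1 and 2. In the same cells Bcl6 was found in 6.02% and 10.9% and Cxcr5 in 4.82% and 1.55%. The genes of both sets are sparse, and a cell without a UMI may still express them.

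A comparison with Il10-positive Il21-zero cells asked what set the Il21-positive cells apart from other cytokine-producing cells of the same gate. The Il10-positive cells numbered 90, 99 and 15. At an adjusted p under 0.05, 58 genes were higher and 32 lower in Il21-positive cells, 1.61% of 5584 genes tested (1.04% higher and 0.573% lower). Ifng and the helper ligands Tnfsf8, Cd40lg, Cd200 and Tnfsf11 were among the higher genes, and the inhibitory receptors Ctla4, Lag3 and Tigit among the lower. Il10 chose the second group and was not tested. The calls numbered 0 without the library term (178 genes at an unadjusted p under 0.05), 15 with DESeq2, and 371 when Il21-positive cells with an Il10 UMI were left out, and 16 and 10 without library 1 or 2 and with the 8 cells of library 3.

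Ifng stood at 713, 471 and 2362 CPM in Il21-positive cells and at 180.3, 173 and 192 in Il10-positive cells (log2 difference 1.80 ± 0.17, adjusted p = 0.00449; called in 10 of 11 other settings). Tnfsf11 gave 433, 333 and 1012 against 72.8, 44.5 and 0 (log2 difference 2.84 ± 0.20, adjusted p = 0.002497), and Tnfsf8 683, 315 and 607 against 295, 67.96 and 219 (log2 difference 1.72 ± 0.23, adjusted p = 0.0182). Cd40lg (1.59 ± 0.18), Cd200 (1.49 ± 0.13), Lta (1.75 ± 0.27) and Bhlhe40 (1.21 ± 0.11) were higher as well, and these 4 genes were above the Il10-positive level in each of libraries 1 and 2. Tcf7 was higher by 3.002 ± 0.38, at 96.6, 77.3 and 67.5 against 13.9, 9.37 and 0, Ccr7 by 1.95 ± 0.32 and Sh2d1a, which encodes the adaptor SAP of T and B cell contacts, by 1.86 ± 0.25. Of 12 tested resting or stem-like genes 2 were higher, Tcf7 and Ccr7, and 0 were lower, with a median of 0.31. Klf2, S1pr1, Klf3 and Il7r were tested and not called, so their loss against Il21-zero cells was not called against Il10-positive cells.

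Maf, by contrast, was lower in Il21-positive cells than in Il10-positive cells, at 451, 311 and 269.9 CPM against 815, 529.6 and 439 (log2 difference -0.70 ± 0.13, adjusted p = 0.0447). Rbpj (0.09 ± 0.16, interval -0.28 to 0.45) and Spry1 (0.36 ± 0.19, interval -0.08 to 0.81) were not called. Of 23 tested costimulatory and inhibitory genes 4 were higher and 6 lower, beside 1.04% and 0.573% over all genes. The lower ones were Ctla4 (-0.68 ± 0.09), Lag3 (-0.76 ± 0.11), Tigit (-0.95 ± 0.13), Cd27 (-1.54 ± 0.20), Tnfrsf9 (-2.12 ± 0.39) and Izumo1r (-0.80 ± 0.13).

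Ikzf2 was at 94.1, 72.8 and 67.5 CPM in Il21-positive cells against 309, 354 and 329 in Il10-positive cells (log2 difference -1.91 ± 0.20, adjusted p = 0.00591), and Ikzf2, Ctla4 and Tnfrsf9 were the 3 of 9 tested Treg genes that were lower, with none higher, although Foxp3 was at 0 in both groups by the gate. Ccl5 (-0.91 ± 0.10) and Nkg7 (-0.63 ± 0.11), genes of effector T cells, were lower too. Among the largest other calls Nrn1 (2.97 ± 0.53), Nrgn (2.93 ± 0.39), Dusp14 (2.60 ± 0.38), Mir155hg (2.63 ± 0.39), Igfbp7 (2.51 ± 0.38), 1700019D03Rik (1.95 ± 0.19) and Cd9 (2.31 ± 0.35) were higher. Klk1 (-3.91 ± 0.39), Sytl2 (-3.83 ± 0.49), Slpi (-2.91 ± 0.44), Neb (-1.98 ± 0.33), Rnase4 (-1.61 ± 0.29), Ddit4 (-1.53 ± 0.22), Arl5a (-1.52 ± 0.20), Aplp2 (-1.36 ± 0.25) and Snx9 (-1.30 ± 0.24) were lower. Il2 was higher too (38.5-fold, exact 95% counting interval 10.4 to 322, 2 against 116 UMIs), from the few cells described above. That interval treats every UMI as independent and is too narrow here, since a single cell held many of them.

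Il21-positive cells also varied among themselves. Cxcr6, a receptor that the study associated with Tph cells, was found in 38 of 83, 40 of 129 and 1 of 8 of them, and these were compared with the 45, 89 and 7 Il21-positive cells without a Cxcr6 UMI. In the fit over libraries 1 and 2, 20 genes were higher and 20 lower in Cxcr6-positive cells, 1.23% of 3264 genes tested (0.613% in each direction). With sums of 38 to 89 cells the counts behind single genes were small, and the calls moved with the settings: 2 with DESeq2, 1 without the library term and 93 with the stricter lineage gate.

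Ifngr1, a subunit of the interferon gamma receptor, stood at 972 and 589 CPM in the Cxcr6-positive cells of libraries 1 and 2 and at 207 and 274 in the Cxcr6-zero cells (log2 difference 1.57 ± 0.24, adjusted p = 0.00619). Higher levels were also called for Ccl5 (1.29 ± 0.15), the cytotoxic granule gene Nkg7 (1.08 ± 0.17), Fgl2 (2.11 ± 0.40), Lgals3 (1.26 ± 0.20), Rgs1 (0.96 ± 0.15), Metrnl (2.06 ± 0.50), Gimap7 (1.22 ± 0.29), Dennd4a (1.60 ± 0.36) and Ier5l (1.23 ± 0.29). Ctla2a (2.04 ± 0.29), Mt1 (1.73 ± 0.37) and Hilpda (1.47 ± 0.36) were higher as well. For Ctla2a 1 cell of library 2 held 52 of 104 UMIs, and for Ccl5 1 cell of the same library held 206 of 420. The Ccl5 difference was 0.014 in thinned cells and -1.10 in MHC class II-zero cells, and was called in neither.

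The ligands Cd200, Tnfsf8 and Tnfsf11 were lower in Cxcr6-positive than in Cxcr6-zero cells. They were called in 4 of 9, 3 of 9 and 3 of 9 other settings, with a negative difference in each. Of 21 tested costimulatory and inhibitory genes 2 were lower, none was higher and 19 were not called. The median log2 difference was 0.31 beside -0.02 over all genes, of which 0.613% were called in each direction. Cd200 was at 635 and 353 CPM in Cxcr6-positive cells against 1122 and 668 in Cxcr6-zero cells (log2 difference -0.92 ± 0.17, adjusted p = 0.00441), Tnfsf8 at 480.3 and 217 against 849 and 356 (log2 difference -0.82 ± 0.19, adjusted p = 0.0278) and Tnfsf11 at 243 and 212 against 588 and 384 (log2 difference -1.11 ± 0.21, adjusted p = 0.00549). Nrn1, which encodes neuritin, was the call kept in most settings (6 of 7), at 11.04 and 5.04 against 238 and 112 (adjusted p = 4.77e-05; 19.2-fold, exact 95% counting interval 6.41 to 94.8, 3 against 106 UMIs), from 11 and 15 Cxcr6-zero cells. The NF-kappaB pathway genes Ripk2 (-3.25 ± 0.56), Rel (-1.25 ± 0.29) and Nfkbia (-0.79 ± 0.15), and Dusp14 (-1.57 ± 0.20), Zfp36l1 (-1.37 ± 0.18), Tespa1 (-1.91 ± 0.40), Fos (-0.76 ± 0.18) and Ccl3 (-0.98 ± 0.22), were lower in Cxcr6-positive cells. The Fos difference was 0.036 in thinned cells.

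Ly6c1 had 0 UMIs in the Cxcr6-positive cells of libraries 1 and 2 and 41 UMIs in the Cxcr6-zero cells, so that it was at least 7.44-fold lower at a floor of 3 counts over the group; 21 of those UMIs lay in 1 cell. Ly6c2 (9.62-fold, exact 95% counting interval 3.12 to 48.1, 3 against 53 UMIs), Pld4 (-1.74 ± 0.40) and Lyz2 (-2.06 ± 0.23) were lower too, and 1 cell held 86 of the 88 Lyz2 UMIs of library 1 and another 215 of the 391 of library 2. Lyz2 and Ly6c2 also mark myeloid cells, and the part of such RNA in these values was not tested. In depth-matched cells the Lyz2 difference was 1.36 and was not called.

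Il10 and the tested transcription factors of the Tfh and Tph programmes did not pass the test within the Il21-positive cells. Il10 was at 480.3 and 322 CPM in Cxcr6-positive cells against 49.4 and 167 (1.74 ± 0.61, adjusted p = 0.539), Tcf7 at 22.1 and 50.4 against 157 and 88.5 (-1.70 ± 0.44, adjusted p = 0.0623), Maf at 718 and 363 against 233 and 289 (0.90 ± 0.29) and Prdm1 at 66.3 and 70.5 against 35.9 and 31.6 (0.99 ± 0.43). Ifng (-0.51 ± 0.18), Rbpj (0.55 ± 0.25) and Spry1 (-0.40 ± 0.27) were not called, none of 22 tested transcription factors passed, and Bcl6 and Cxcr5 were too low to be tested.

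**Figure D5:**
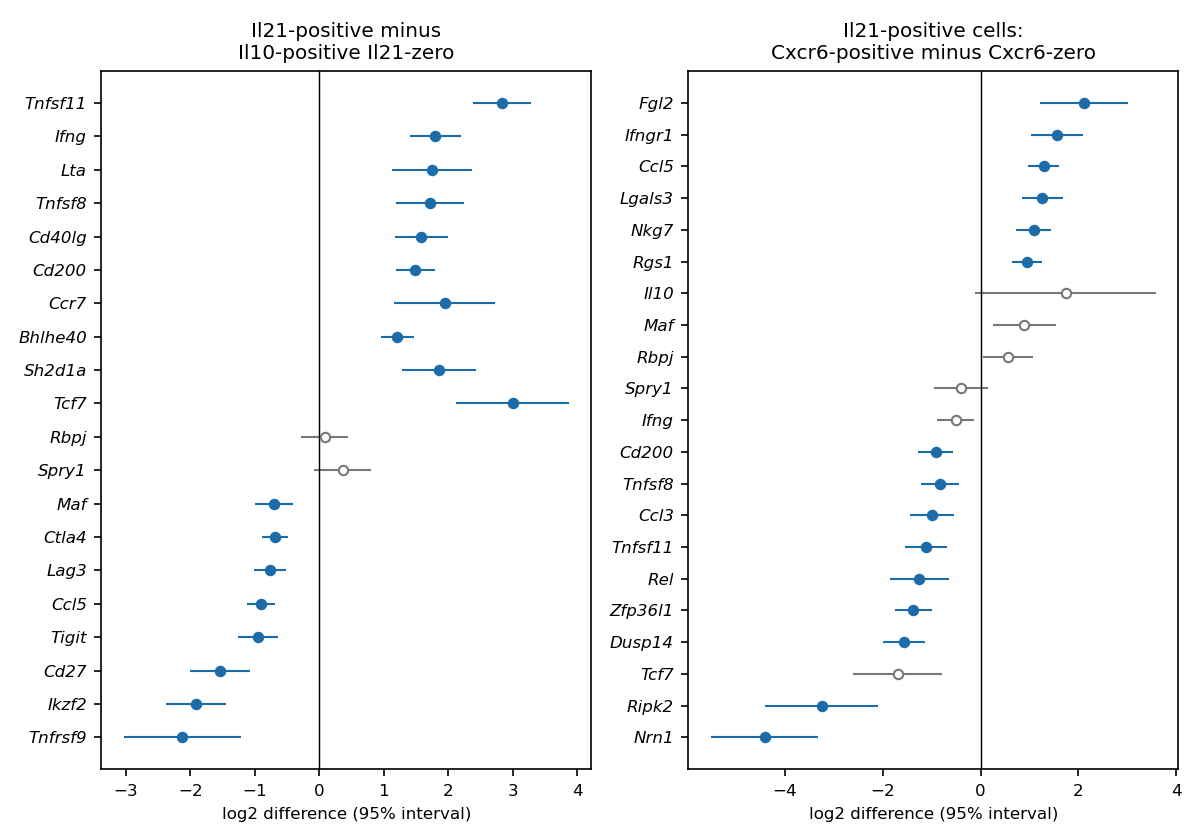
Fitted log2 differences with 95% intervals over libraries 1 and 2, left for Il21-positive minus Il10-positive Il21-zero cells and right for Cxcr6-positive minus Cxcr6-zero cells among the Il21-positive cells. Filled points were called at an adjusted p under 0.05. Tnfsf11, Tnfsf8 and Cd200 are positive on the left and negative on the right, and Maf is negative on the left.

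T cell receptor variable segments were read from the same libraries, as the share of cells with a UMI of the segment. In library 1 Trbv13-1 was found in 27.7% (18.4 to 38.6) of Il21-positive cells against 10.8% (8.34 to 13.7) of Il21-zero cells, and the intervals did not overlap, while Trbv13-2 and Trbv19 were found in 20.5% and 12.05% against 18.7% and 14.3%. In library 2 the leading segment was Trbv13-2, in 28.7% (21.1 to 37.3) of Il21-positive cells against 20.95% (17.98 to 24.2), followed by Trbv19 (14.7% against 10.5%) and Trbv1 (11.6% against 12.6%), and Trbv13-1 stood at 8.53% against 10.8%. In library 3 Trbv13-2 was found in 4 and Trbv1 in 3 of the 8 cells, and Trbv12-2 in 1.

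Of the alpha chain segments, Trav21-dv12 led in library 1, in 13.3% (6.81 to 22.5) of Il21-positive cells against 4.22% (2.69 to 6.27), ahead of Trav6n-6 (10.8% against 6.79%) and Trav13-1 (9.64% against 4.22%). Trav5-4 led in library 2 (11.6% against 14.5%), before Trav3-3 (8.53% against 7.23%) and Trav9-1 (8.53% against 4.62%), and Trav10 in library 3, in 3 of 8 cells, before Trav3-3 and Trav4-2 in 2 each. The leading segments of libraries 1 and 2 thus differed. Segments of 1 family are similar in sequence and the counting could split their reads, so these shares are uncertain, and cells of 1 mouse are not replicates.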

How the data were processed

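Single-cell gene expression libraries of CD45-sorted sciatic nerve cells were made with the 10x 5' kit, sequenced and aligned to mm10 by the authors. The deposited matrices hold UMI counts per gene and cell that the authors obtained with Cell Ranger (5.0.1 for library 1 and 6.1.2 for libraries 2 and 3, per the file headers), without normalization. Library 1 came without gene names here and took the row order of the others; mean levels per row correlated at Spearman 0.950 with library 2 and 0.929 with library 3, and at 0.362 and 0.321 with rows shifted by 1. Total UMIs were 22983991, 55120460 and 3399733, and median UMIs per cell 3985.5, 4659 and 1726.

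Cells with at most 5000 genes and at most 20% mitochondrial UMIs were kept (13637 of 13770). No doublet caller was run, and the gate removed cells with Cd79a, Cd8a, Cd8b1 or more than 1 C1q UMI. UMIs were summed per library and group of at least 10 cells, which left library 3 out of the tests. The sums were tested with edgeR 4.0.16 (R 4.3.3) by its robust quasi-likelihood F test, with TMM scaling, filterByExpr and the library as a term, and p-values were adjusted by Benjamini-Hochberg over all genes tested. The library term pairs sums of the same mice, and their deviations from the group means correlated at 0.779, 0.625 and 0.575 in the 3 comparisons. Genes used by the gate, by Il10 in the comparison with Il10-positive cells and by Cxcr6 in the one within Il21-positive cells were not tested. The p-values rest on sums of 2 mice, with 1 residual degree of freedom per gene. Most of their spread is borrowed across genes, with median prior degrees of freedom of 43.3, 6.85 and 19.9 in the 3 comparisons. They are thus no measure of the spread of a single gene between mice. Intervals of shares are exact Clopper-Pearson at 95%, and a share of 0 allows up to 3 counts of the total. Counting intervals of fold differences treat UMIs as independent and cover neither UMIs that share a cell nor the spread between mice. Thinning drew 1000 UMIs per cell and left out shallower cells.

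The members and the gene lists were chosen with earlier results of these data known. Genes named were list members and, per comparison and direction, the 12 largest differences among called genes with the same direction in both libraries and a mean of at least 50 CPM, leaving out gate, antigen receptor, mitochondrial and ribosomal protein genes. Cd74, H2-Aa and Cst3 were named after their values were seen, and other genes for a marker role. On simulated counts for the first comparison the fit recovered 46.9% of genes changed by 1 log2 unit and 86.5% of genes changed by 2, with 1 false call among 8355 genes. For the comparison with Il10-positive cells these shares were 40.9% and 96.7%, with 7 false calls among 5235 genes. For the comparison by Cxcr6 they were 52.8% and 94.1%, with 5 false calls among 2991 genes. How these values change with the spread of single genes was not tested. Alternatives were RLE scaling, DESeq2 1.42.0, no filter, no library term, a stricter lineage gate, thinned or depth-matched cells, no cell limits, and other definitions of the groups. The library 3 and MHC class II alternatives were added after the data were seen. Some genes are not reported here. Promoter sequence is from RefSeq and gene positions are from GENCODE on mm10.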

Additional observations from a re-analysis of the deposited data

Results flagged for a closer look

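Il21 was also found outside the gate, in cells that no comparison above used. CD8 T cells held an Il21 UMI in 2.68% (1.81 to 3.799) of 1121 cells in library 1 and 1.43% (0.847 to 2.24) of 1262 cells in library 2, and Foxp3-positive CD4 T cells in 2.26% (0.832 to 4.84) of 266 and 2.52% (0.931 to 5.41) of 238 cells. These 4 shares were above those of B cells in the same libraries, 0% and 0.272%, and in library 1 also above the 1.27% that 0 of 236 B cells allows, but the exact interval of those B cells reached 1.55% and overlapped that of the Foxp3-positive cells. In library 3, 1 of 267 CD8 T cells and 0 of 25 Foxp3-positive cells held Il21. With cells thinned to 1000 UMIs the CD8 shares of libraries 1 and 2 were 1.099% (0.5498 to 1.96) and 0.1604% (0.0194 to 0.578), and the Foxp3-positive shares 0% (0 to 1.46) and 0.431% (0.0109 to 2.38), all under the 1.36% and 0.815% that 0 of 221 and 0 of 368 thinned B cells allow.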

How the results depend on the processing

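The counts of called genes depended strongly on the settings. For Il21-positive against Il21-zero cells the 237 calls became 90 with RLE scaling, 46 with DESeq2, 145 with thinned cells, 44 without cell limits, 118 with at least 2 Il21 UMIs and 94 with the 8 cells of library 3, and they stayed within 1.5 times with the stricter gate, matched cells, no filter and MHC class II-zero cells. Against Il10-positive cells the 90 calls became 15 with DESeq2, 285 without a filter, 202 with matched cells, 371 with Il21-positive cells that had 0 Il10 UMIs and 50 with MHC class II-zero cells. Within the Il21-positive cells the 40 calls became 2 with DESeq2, 86 without a filter, 93 with the stricter gate, 1 with thinned cells, 24 with matched cells, 14 without cell limits and 2 with MHC class II-zero cells. Without the replicate block, that is without pairing the sums of a library, the 3 counts were 0, 0 and 1 (272, 178 and 82 genes at an unadjusted p under 0.05). The causes were not tested.

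Leaving out 1 library gave 4 to 237 calls in the first comparison and 10 to 90 in the second, where the upper values leave out library 3, which the fit does not hold, and the lower ones use its 8 cells in place of library 1 or 2. With the 10-cell minimum kept, leaving out library 1 or 2 left 1 library and no test, and the third comparison had no such value. The mean share of gated cells with an Il21 UMI was 11.1% over the 3 libraries, 8.75% to 14.5% with 1 library left out, 5.03% after thinning and 4.95% at 2 or more UMIs. For 79, 48 and 37 named genes in the 3 comparisons, settings that left out no library gave 567, 390 and 167 values that kept direction and call. Under these settings 256, 109 and 115 kept the direction and lost the call, 17, 2 and 7 gained one, and 10, 4 and 4 changed sign. With the 8 cells of library 3 in place of library 1 or 2, 18 and 26 values kept both in the first and second comparison. Then 119 and 52 lost the call, 1 and 0 gained one, and 8 and 4 changed sign.

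In the first comparison the log2 difference changed sign for Bcl6 (-0.0092 with the stricter gate, -0.13 in MHC class II-zero cells), Pdcd1 (0.024 with the stricter gate, 0.13 in matched and 0.047 in MHC class II-zero cells), Icos (0.021, matched), Cxcr6 (0.16, matched; 0.012, MHC class II-zero), Cd74 (-0.24) and Cst3 (-0.25, both MHC class II-zero). With 1 of libraries 1 and 2 left out and the 8 cells of library 3 added it was -0.058 to 0.10 for Maf, -0.25 to -0.044 for Id2, -0.067 to 0.018 for Icos, -1.08 to -1.02 for Cd74 and -0.76 to -0.67 for H2-Aa. In the second comparison it changed sign for Rbpj (-0.077 with 0 Il10 UMIs), Cd74 (-0.28 in MHC class II-zero cells, -0.065 with library 3, -1.45 to -1.36 with 1 library left out) and Cst3 (-0.74 in MHC class II-zero cells, -0.26 to -0.092 with 1 library left out). Among the Il21-positive cells it changed sign for Ccl5 (-1.10, MHC class II-zero), Lyz2 (1.36, matched), Fos (0.036, thinned) and Rbpj (-0.087, thinned).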

Other observations

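Cell cycle, interferon-stimulated and cytotoxic genes were compared between Il21-positive and Il21-zero cells beside the 2.74% of all genes that were called (1.22% lower). None of 20 tested cell cycle genes was called by edgeR, with 15 positive and 5 negative differences and a median log2 difference of 0.31. Libraries 1 and 2 disagreed for several of them. Hmgb2 stood at 238 and 721 CPM in Il21-positive cells of libraries 1 and 2 against 495 and 583 in Il21-zero cells. Stmn1 stood at 19.8 and 227 against 62.1 and 131. Others, such as Mcm2 at 19.8 and 31.2 against 13.9 and 18.2, were higher in both. Among 17 tested interferon-stimulated genes the called ones were Bst2 (-0.64 ± 0.13) and Ly6a (-0.55 ± 0.11), both lower (2 of 17), and the median was -0.22. Among 11 tested cytotoxic genes Gzma, which encodes granzyme A, was lower (21.97-fold, exact 95% counting interval 5.99 to 183, 2 against 178 UMIs) and the others were not called (median -0.26). Of 9 tested Treg genes other than Foxp3, Ctla4 was higher and Ikzf2 and Tnfrsf9 were lower.

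Against Il10-positive cells, none of 19 tested cell cycle, 15 common gamma chain and 5 Notch genes was called, Bst2 (-1.03 ± 0.14) was the called one of 14 interferon-stimulated genes, and the chemokine and residency list held Ccr7 and the integrin Itgb1 (1.001 ± 0.15) as higher. In the antigen receptor response list Nfkbia (0.75 ± 0.12) was higher and Rgs1 (-0.52 ± 0.08) lower. Among the Il21-positive cells, none of 11 cell cycle, 10 interferon-stimulated, 13 common gamma chain, 3 Notch, 9 resting and 9 Treg genes differed with Cxcr6 at an adjusted p under 0.05 in edgeR.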
